A study of Oryza sativa Indica Group with 8 samples.

Results

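This report describes the 199 rice loci that were expressed in leaves of GL and stood at least 2 times higher in leaves of OE5, out of 35961 loci listed in the deposited tables. A locus was taken when both GL libraries held more than 3 counts, the lower OE5 library reached 2 TPM (a transcript level scaled to locus length and to the library total) and the lower OE5 value was at least 2 times the higher GL value. A pair of loci was left out beforehand, whatever their values. GL is the elite variety Guangluai 4, labelled WT, and the study states that it carries a loss-of-function allele of OsPRR37. OE5 is a single transgenic line that overexpresses OsPRR37 in the GL background, and the promoter that drives the transgene is not given in the sources used here. Top leaves were taken in the morning from plants 15 days old, which grew under a day of 14 h light and 10 h dark at 28°C. There were 2 RNA-seq libraries per genotype. Methylation samples of the same plants were not analysed here.

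PRR proteins (pseudo-response regulators) are clock components that act one after another through the day and repress the transcription of other clock genes and of output genes. A raised level of a repressor can lower its direct targets and, through other repressors, raise genes further downstream. Only some of the loci below have a name in the sources used here, since the identifiers are MSU loci that the RefSeq table does not hold (0 matched). For the same reason, leaf markers were not checked.

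All 4 libraries of the contrast chose the members, so their levels and ratios are a description and no test was applied to them. The libraries held between 43423801 and 48284992 counts on genes. Of the 35961 loci, 23423 had more than 3 counts in both GL libraries, and 16306 of these also reached 2 TPM in both OE5 libraries and are called eligible here. The members made up 1.22% of the eligible loci. With the rule mirrored, 29 loci stood at least 2 times higher in GL, or 0.185% of the loci eligible for that. TPM values ran higher in OE5 over most loci. The median log2 ratio of the group means over eligible loci was 0.15, and OE5 lay above GL in every pair of libraries for 46.8% of them, against 7.72% with GL above OE5. On the TMM scale (a scaling that centres the bulk of the genes) that median was -0.01, and 141 loci met the rule, all of them among the 199. That overlap was fixed in advance, since this scale raises the values of both GL libraries and lowers those of both OE5 libraries. The mirrored rule then took 47 loci, so the share of higher loci among both directions moved from 87.3% to 75%. The 58 members lost on this scale had a lower OE5 to higher GL ratio of at most 3.51, and 2 of them had a ratio of 3 or more. Those 2 were lost through the OE5 minimum of 2 TPM and not through the ratio. Before scaling, LOC_Os03g45960 had 2.08 TPM in OE5-1 and LOC_Os07g07320 had 2.13 TPM in OE5-2. When the rule was applied without 1 library at a time, it took 431 loci without GL-1, 364 without GL-2, 323 without OE5-1 and 334 without OE5-2, since fewer values had to meet it, and the 199 were among them each time.

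**Figure D1:**
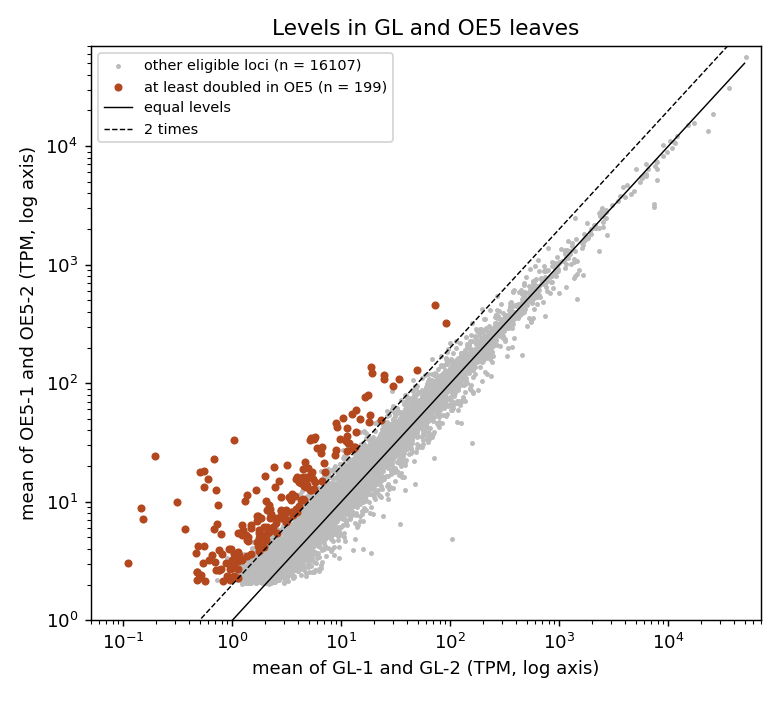
Mean level in GL (x axis, TPM, log axis) against mean level in OE5 (y axis, TPM, log axis) for each eligible locus, with the 199 members in colour and lines for equal levels and for 2 times. Members lie above the dashed line and mostly at low levels in GL, with a median of 2.22 TPM against 11.2 TPM for all eligible loci.

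Most members were expressed at a low level in GL. The median member had 2.34 TPM in GL-1, 2.03 TPM in GL-2, 8.14 TPM in OE5-1 and 8.85 TPM in OE5-2. Over all eligible loci the medians were 11.4, 10.9, 12.4 and 12.6 TPM in the same order, so the median member was below the median eligible locus in each library, and closer to it in OE5. By mean GL level, 45 members had under 1 TPM, 104 had 1 to 5 TPM, 42 had 5 to 20 TPM and 8 had 20 to 100 TPM. None reached a mean of 100 TPM in GL, a level held by 1030 eligible loci. The class under 1 TPM is set by the rule itself, because a locus that low in GL is nearly always doubled once it reaches 2 TPM in OE5, and 45 of its 50 eligible loci were members. In the class of 1 to 5 TPM, 2.67% of the eligible loci were members, in that of 5 to 20 TPM 0.579%, and in that of 20 to 100 TPM 0.196%. The class of 1 to 5 TPM is also shaped by the rule in part. A locus there under 2 TPM in GL is eligible only where both OE5 libraries reach 2 TPM. By mean OE5 level, 55 members had under 5 TPM, 98 had 5 to 20 TPM, 38 had 20 to 100 TPM and 8 had 100 TPM or more.

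Together the members held little of the RNA in either genotype. In GL-1 their values summed to 1125 TPM, or 0.113% of the total, and in GL-2 to 996 TPM, or 0.0996%. In OE5-1 and OE5-2 they summed to 4255 and 4071 TPM, or 0.426% and 0.407%. The difference in TPM was concentrated in few loci. LOC_Os09g36680 and LOC_Os05g15770 made up 19.9% of the summed difference in mean TPM, and the 10 members with the largest difference made up 41.8%.

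Most members stood between 2 and 3 times higher in OE5. By the ratio of the lower OE5 to the higher GL value, 122 members lay between 2 and 3, 50 between 3 and 5, 13 between 5 and 10, and 14 at 10 or more. The median of this ratio was 2.62, with quartiles of 2.19 and 3.75. By the ratio of the group means, the median was 3.41, against 1.11 over all eligible loci. Over single pairs of libraries, the median ratio was 3.30 for OE5-1 over GL-1, 3.45 for OE5-1 over GL-2, 3.33 for OE5-2 over GL-1 and 3.52 for OE5-2 over GL-2. The choice of GL library moved it more than the choice of OE5 library. At the limit, LOC_Os04g11820 was just inside with 1.10 and 1.14 TPM in GL and 2.30 and 2.28 TPM in OE5, a ratio of 2.005, and LOC_Os01g64470 had a ratio of 2.008. LOC_Os01g70010 was just outside with 28.4 and 23.7 TPM in GL and 60.3 and 56.8 TPM in OE5, a ratio of 1.996, and LOC_Os03g09880 had a ratio of 1.994. Between ratios of 2 and 2.1 there were 29 members, and 32 eligible loci lay between 1.9 and 2, so the limit does not fall in a gap.

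The 14 loci with a ratio of 10 or more were near silence in GL. Their GL values lay between 0.0797 and 1.05 TPM, from 4 to 124 counts, and their OE5 values between 3.04 and 34.3 TPM. LOC_Os08g13430 had the largest ratio, with 0.257 and 0.136 TPM in GL and 26.9 and 21.4 TPM in OE5. Its GL values rest on 11 and 6 counts, with exact Poisson 95% intervals of 5.49 to 19.7 and 2.20 to 13.1 counts that cover counting error only. The lower OE5 value was 83.2 times the higher GL value, and the size of this ratio is therefore imprecise. LOC_Os12g30550 followed with 0.176 and 0.115 TPM in GL, from 6 and 4 counts, and 7.43 and 10.2 TPM in OE5. LOC_Os01g71840 had 0.0797 and 0.225 TPM in GL against 7.72 and 6.68 TPM in OE5. As a ratio, its GL libraries differed by more (2.83 times) than its OE5 libraries (1.16 times).

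Better counted among these loci was LOC_Os07g10850, with 101 and 124 counts in GL and 4138 and 3815 in OE5. Its level was 0.495 and 0.592 TPM in GL and 19.0 and 17.2 TPM in OE5, and the libraries of a genotype lay close together. LOC_Os07g44780 had 0.264 and 0.351 TPM in GL and 10.3 and 9.74 TPM in OE5. LOC_Os12g05290 had 0.477 and 0.892 TPM in GL and 23.8 and 22.4 TPM in OE5. LOC_Os01g50622 stayed low in OE5 too, with 3.04 and 3.07 TPM, after 0.103 and 0.117 TPM in GL. In none of these loci did a GL library overlap an OE5 library, which the rule requires.

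**Figure D2:**
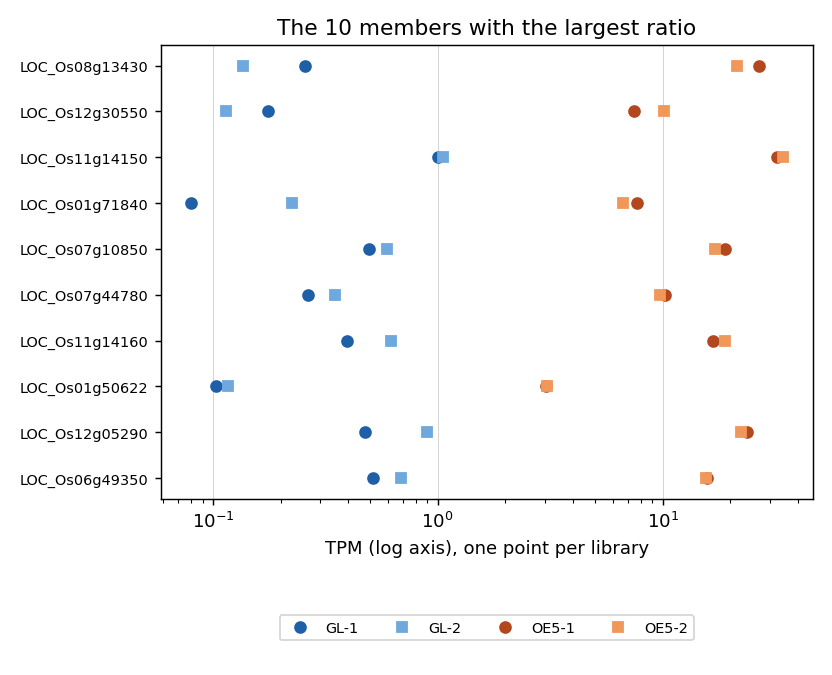
Level in TPM (x axis, log axis) of the 10 members with the largest ratio of the lower OE5 to the higher GL value, with 1 point per library and loci in order of that ratio. The GL points lie between 0.0797 and 1.05 TPM and the OE5 points between 3.04 and 34.3 TPM.

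At the other end of the scale, the 10 members with the highest OE5 level had 12.7 TPM or more in every GL library. LOC_Os09g36680 was the highest, with 92.6 and 51.1 TPM in GL and 497 and 416 TPM in OE5, or 71.9 ± 29.3 TPM (SD, n = 2) against 457 ± 57.4 TPM (SD, n = 2). GL-1 was above GL-2, and both OE5 libraries were far above either. LOC_Os05g15770 had 114 and 66.7 TPM in GL and 331 and 316 TPM in OE5. This was the only member with a GL library above 100 TPM. LOC_Os01g38610 had 21.1 and 16.5 TPM in GL and 162 and 110 TPM in OE5. LOC_Os07g46990 had 47.5 and 52.3 TPM in GL and 131 and 129 TPM in OE5, with a close match of the libraries in each genotype. LOC_Os07g41400 had 20.4 and 17.6 TPM in GL and 128 and 114 TPM in OE5, and its ratio of 5.57 was the largest of the 10. LOC_Os12g02200 was less even, with GL libraries at 42.2 and 16.8 TPM and OE5 libraries at 89.6 and 99.5 TPM, so that GL-1 alone sets its ratio of 2.12.

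The study lists loci, most of them with a name, that differed in both methylation and expression, and 9 members were found in the copy of that list used here. The copy may lack a locus, so no share of the list is given. The list was chosen on these same plants and is not independent evidence of a direction.

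OsRUP (LOC_Os02g02380) had the highest level of the 9. It is named after the RUP proteins, which in Arabidopsis hold back the UV-B photoreceptor. It had 31.6 and 36.2 TPM in GL and 117 and 99.6 TPM in OE5, a ratio of 2.75 between the lower OE5 and the higher GL value. The RNA-binding protein LOC_Os07g27300 had the closest GL libraries of the 9, with 12.9 and 12.8 TPM in GL and 28.3 and 27.4 TPM in OE5. OsSTA101 (LOC_Os03g25490) had 4.82 and 4.37 TPM in GL and 22.2 and 21.5 TPM in OE5, so both libraries of a genotype were close. LOC_Os12g34880, of unknown function, had 3.72 and 3.35 TPM in GL and 11.3 and 12.1 TPM in OE5.

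OsPT11 (PHT1-11, LOC_Os01g46860), a phosphate transporter, lay near the limit of the rule, with 2.76 and 1.84 TPM in GL and 5.59 and 5.93 TPM in OE5. OsSNDP9 (LOC_Os08g38850) had 0.801 and 0.711 TPM in GL and 2.80 and 2.51 TPM in OE5. Histone H2B.11 (LOC_Os05g38560), a core histone around which DNA is wound, had 0.613 and 0.837 TPM in GL, from 5 and 7 counts, and 7.47 and 5.52 TPM in OE5. Histone genes occur in families of similar copies, so reads may be shared with other loci, which was not tested.

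Of the 10 members with the largest ratio, only LOC_Os06g49350 and LOC_Os11g14150 have a name here, both as mobile elements in the study's list. What the others encode is not given in the sources used here. LOC_Os06g49350, listed as a retrotransposon (an element that moves through an RNA copy), had 0.515 and 0.686 TPM in GL and 15.8 and 15.6 TPM in OE5. LOC_Os11g14150, listed as a transposon, had 1.01 and 1.05 TPM in GL and 32.3 and 34.3 TPM in OE5, a ratio of 30.7. The next listed locus, LOC_Os11g14160, was also a member, with 0.394 and 0.620 TPM in GL and 16.7 and 19.0 TPM in OE5 and a ratio of 27.0. The ratios of both loci were close. On the other side, LOC_Os11g14140 had 15.4 and 15.1 TPM in GL and 25.7 and 26.7 TPM in OE5, higher in OE5 but short of 2 times. How reads of repeated elements were assigned is not given in the sources used here, so the values of such loci are uncertain.

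The members were spread over all 12 chromosomes, by the chromosome number in the identifier. Chromosome 1 held the most (27) and chromosome 4 the fewest (8). As a share of the eligible loci, chromosome 11 was highest with 18 of 770 (2.34%), followed by chromosome 10 with 17 of 857 (1.98%) and chromosome 12 with 17 of 874 (1.95%). Chromosome 4 was lowest with 8 of 1428 (0.560%), and chromosome 2 had 14 of 1978 (0.708%). By share of eligible loci, each of the chromosomes 1 to 6 lay below the overall 1.22% and each of the chromosomes 7 to 12 above it. This split depends on the base and does not hold for shares of listed loci, of which members make up 0.555%. On that base chromosome 1, with 27 of 4697, lay above the overall share and chromosome 8, with 14 of 2546, below it. Chromosomes 10, 11 and 12 together held 26.1% of the members and 15.4% of the eligible loci. The counts per chromosome are small and neighbouring loci are not independent, so the order of chromosomes with close shares is not resolved, and no test was applied.

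**Figure D3:**
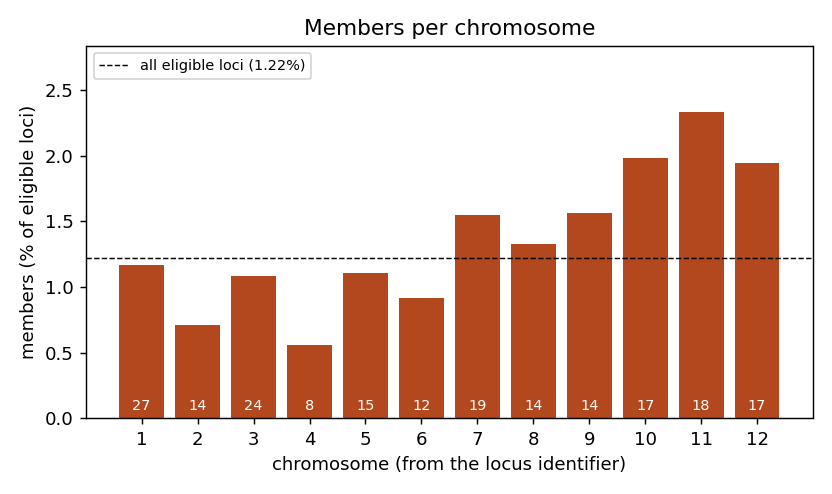
Members as a percentage of the eligible loci on each chromosome (bars), with the number of members written in each bar and a dashed line at the share over all eligible loci, 1.22%. Shares run from 0.560% on chromosome 4 to 2.34% on chromosome 11.

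Locus numbers follow the order along a chromosome, so listed loci could be ordered and members that stand next to each other counted. In this order 29 members (14.6%) stood next to another member. They formed 13 runs, 10 of 2 loci and 3 of 3 loci. Of the 398 places directly beside a member, 32 (8.04%) were held by another member. Members make up 0.555% of the loci in the order and 1.22% of the eligible loci. Numbers absent from the list were passed over, as between LOC_Os09g36680 and LOC_Os09g36700. Within 5 listed loci of another member there were 39, and within 10 there were 55. None of the 29 loci of the mirrored rule stood within 10 listed loci of another, but that list is short. Neighbours that were not members were set beside the other loci, with no test. Of 155 eligible neighbours, 16 (10.3%) were at least 1.5 times higher in OE5 in every pair of libraries, against 393 (2.47%) of the 15921 other eligible loci. In the other direction it was 0 of 155, against 91 (0.572%). An approximate upper limit for 0 of 155, taken as 3 of 155, is 1.94%, and it treats the neighbours as independent. The median log2 ratio of the group means was 0.19 in the neighbours and 0.15 in the other loci, so the medians lay close together. With the rule applied without GL-1, 61 of 431 loci stood next to another, and without OE5-1 46 of 323.

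In 4 of the 13 runs the same 2 locus lengths came back. Count divided by TPM gives the length of a locus relative to others, set here to 1 for the median eligible locus. LOC_Os02g33480, LOC_Os06g21498, LOC_Os06g21507, LOC_Os06g36859 and LOC_Os09g18430 all had a relative length of 0.388. LOC_Os02g33470, LOC_Os06g21516, LOC_Os06g36870 and LOC_Os09g18440 all had one of 0.627, with a tolerance of 0.05% for equality. Each run paired loci of both lengths, in 1 place each on chromosomes 2 and 9 and in 2 places on chromosome 6. In all listed loci, 13 had the shorter and 21 the longer length, and no other loci of these lengths stood next to each other. These loci were singled out after their values were seen. The 5 short loci had 2.42 to 5.49 TPM in GL-1, 2.90 to 5.88 TPM in GL-2, 18.8 to 39.8 TPM in OE5-1 and 11.3 to 31.1 TPM in OE5-2. The 4 long loci had 10.1 to 22.0 TPM in GL-1, 14.8 to 27.7 TPM in GL-2, 62.8 to 124 TPM in OE5-1 and 46.8 to 112 TPM in OE5-2. Within a run the long locus was always the higher per length.

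The GL libraries of these loci were set beside each other next. GL-1 over GL-2 was 0.837 to 1.06 for the short loci and 0.678 to 0.793 for the long loci, so the ranges did not overlap. LOC_Os06g21516 and LOC_Os09g18440 had the same 1005 counts in GL-2, and 760 and 777 in GL-1, 4009 and 4689 in OE5-1 and 4234 and 4326 in OE5-2. The ratio of the lower OE5 to the higher GL value was 3.90 to 5.80 for the short and 3.16 to 4.05 for the long loci. Whether these loci are copies whose reads cannot be told apart was not tested, since their sequences were not used here, and they may not be independent members. Without these 9 loci, 20 of the other 190 members stood next to another.

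**Figure D4:**
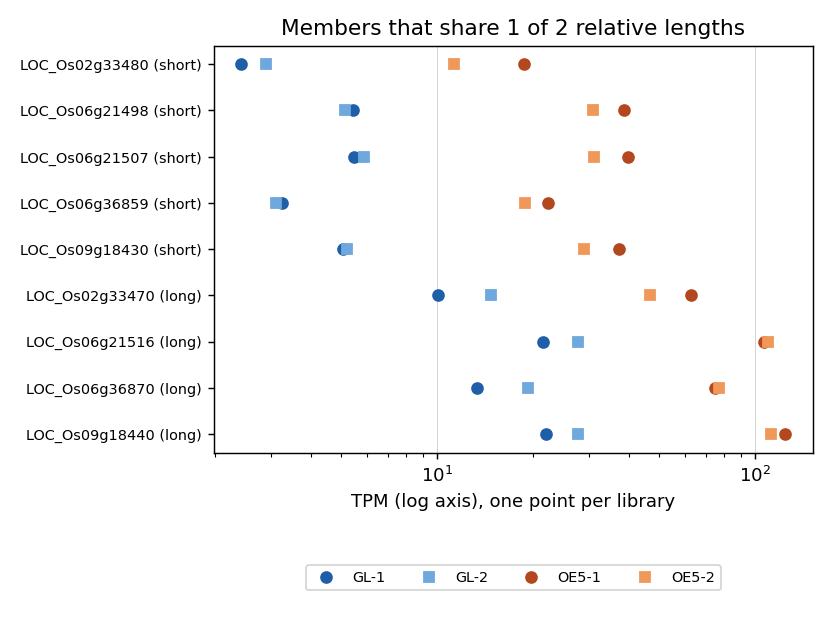
Level in TPM (x axis, log axis) of the 9 members that share 1 of 2 relative lengths, with 1 point per library, the 5 short loci above and the 4 long loci below. At every locus both OE5 points lie above both GL points, and the long loci have GL-1 below GL-2 throughout.

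The other runs had no shared length of this kind. LOC_Os09g36680, the highest member, stood next to LOC_Os09g36700, which had 22.7 and 12.7 TPM in GL and 93.0 and 67.1 TPM in OE5. In both loci GL-1 was above GL-2 and OE5-1 above OE5-2. The run of 3 on chromosome 11 held LOC_Os11g37950, with 13.9 and 16.0 TPM in GL and 46.5 and 52.9 TPM in OE5. Next to it, LOC_Os11g37960 was far lower, with 1.46 and 1.01 TPM in GL and 6.25 and 6.36 TPM in OE5. LOC_Os11g37970 had 15.5 and 11.9 TPM in GL and 55.2 and 63.0 TPM in OE5. The loci on either side lay between 2.11 and 7.23 TPM in all libraries, with 2.25 and 3.38 TPM in GL and 2.11 and 2.54 TPM in OE5 for LOC_Os11g37920, and 6.09 and 6.06 against 5.66 and 7.23 TPM for LOC_Os11g37980.

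On chromosome 10, LOC_Os10g34910 had 5.66 and 7.67 TPM in GL and 25.1 and 33.2 TPM in OE5. LOC_Os10g34920 had 3.03 and 2.55 TPM against 7.86 and 8.85 TPM, and LOC_Os10g34930 had 3.51 and 5.01 TPM against 13.7 and 17.9 TPM. Directly before this run, LOC_Os10g34902 had 0.850 and 0.460 TPM in GL and 1.59 and 1.47 TPM in OE5, with at most 18 counts. Directly after it, LOC_Os10g34940 had 2.72 and 1.81 TPM in GL and 2.14 and 3.21 TPM in OE5. RIPER7 (LOC_Os10g34884), which is in the study's list, stood 4 places before this run with both OE5 libraries below both GL libraries. It had 2.86 and 3.10 TPM in GL and 1.33 and 1.53 TPM in OE5. A similar contrast stood beside OsSTA101, where the next locus, CYP72A1 (LOC_Os03g25500, named after a cytochrome P450 enzyme), had 20.1 and 24.1 TPM in GL and 16.1 and 15.3 TPM in OE5. OsMADS18 (LOC_Os07g41370), a MADS-box transcription factor, stood 2 places from LOC_Os07g41400 and had 11.3 and 10.8 TPM in GL and 7.91 and 7.85 TPM in OE5. CYP72A1 and OsMADS18 are in the study's list too, which holds only loci that changed in these plants. Of the 155 eligible neighbours of members, 0 were at least 1.5 times lower in OE5 in every pair of libraries.

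**Figure D5:**
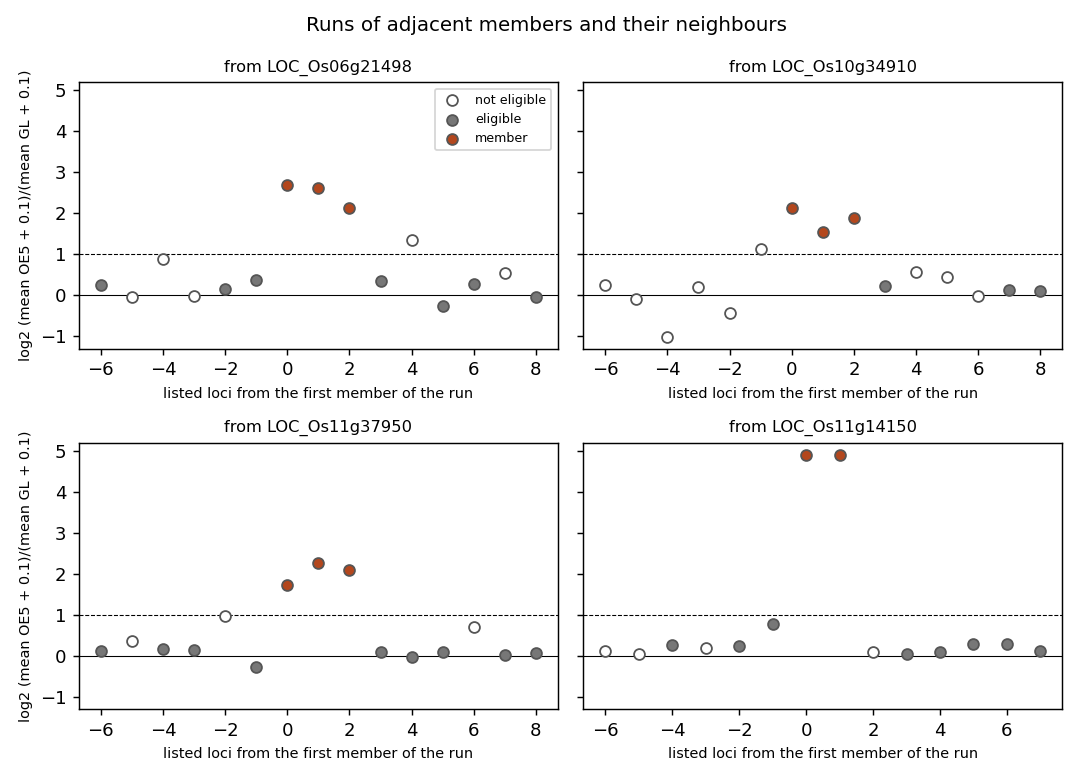
Log2 ratio of mean OE5 to mean GL TPM, each with 0.1 TPM added (y axis), along listed loci counted from the first member of a run (x axis), for the 3 runs of 3 members and the run at LOC_Os11g14150. Within each window the members (coloured) lie above the eligible (grey) and other (open) neighbours, of which a few open points also pass the dashed line at a log2 ratio of 1. For the eligible neighbours this is largely set by the rule that chose the members.

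On chromosome 5, LOC_Os05g01170 had 11.3 and 10.9 TPM in GL and 26.6 and 38.9 TPM in OE5, beside LOC_Os05g01180 with 10.1 and 12.3 TPM in GL and 25.3 and 27.9 TPM in OE5. LOC_Os03g15910 and LOC_Os03g15920 were almost alike, with 3.17 and 2.68 TPM against 2.99 and 2.58 TPM in GL and 8.15 and 7.92 TPM against 7.77 and 7.48 TPM in OE5. This pair was named after its values were seen. Neither their overlap nor the handling of strand is given in the sources used here, so these counts may not be separate. Beyond the runs of members, LOC_Os04g41620 (17.4 and 9.99 TPM in GL, 35.3 and 41.5 TPM in OE5) stood next to LOC_Os04g41630, which had 0.0931 and 0.363 TPM in GL and 8.29 and 10.9 TPM in OE5. LOC_Os12g02200 stood next to LOC_Os12g02210, a RING finger locus with 0.629 and 0.175 TPM in GL and 21.7 and 12.04 TPM in OE5. Both of these neighbours are in the study's list and were picked from it. That list holds only loci that changed in these plants, so their change does not speak for neighbours of members in general. Both had too few GL counts to be members.

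The median relative length of the members was 0.569, with quartiles of 0.349 and 0.945, against 1 for the median eligible locus by construction, and 44 of the 199 (22.1%) were longer than the median eligible locus. Among loci under 5 TPM in GL, the median relative length was 0.557 for the 149 members and 0.961 for the 3944 eligible loci. Levels were not matched within that limit, and no test was applied to these lengths. Length also sets the number of counts at a given TPM. The median member had 154 counts over both GL libraries, and the median eligible locus 1319. In 20 members a GL library held fewer than 10 counts.

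Replicates of a genotype were also compared, with no test. In the members, the larger over the smaller replicate had a median of 1.27 in GL and 1.14 in OE5, against 1.14 and 1.09 over all eligible loci. More than 1.5 times apart were the GL libraries in 49 members (24.6%, against 8.15% of eligible loci) and the OE5 libraries in 19 (9.55%, against 2.85%). Among loci under 5 TPM in GL, the GL libraries of 27.5% of members and 14.7% of eligible loci were that far apart. That limit does not match the levels, since 45 of the 149 members and 50 of the 3944 eligible loci were under 1 TPM. GL-1 was above GL-2 in 107 of the 199 members (53.8%) and in 62.9% of the eligible loci. The widest gap was in LOC_Os06g32610, where GL-1 had 1.10 TPM, GL-2 had 7.01 TPM and the OE5 libraries had 14.1 and 14.9 TPM. In LOC_Os12g31860 it was the reverse, with 7.35 and 1.46 TPM in GL and 16.5 and 21.0 TPM in OE5. LOC_Os12g24020 had 14.2 and 3.53 TPM in GL and 46.1 and 46.5 TPM in OE5. Those 3 loci would have ratios several times larger against the lower GL library alone. Between the OE5 libraries the widest gaps were in LOC_Os03g12500 (2.08 and 4.99 TPM), LOC_Os08g35760 (8.36 and 3.65 TPM) and LOC_Os05g24660 (4.04 and 7.70 TPM), all under 2 TPM in both GL libraries.

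How many members a test over all genes would call was also counted, as a description, because the test uses the contrast that chose them. With edgeR's quasi-likelihood test over 19280 loci, 407 loci (2.11%) were called higher in OE5, where a call needed an adjusted p below 0.05 together with a change of more than 1.5 times. Of the 199 members, 166 were among them and 33 were not, so the members made up 40.8% of the calls. All 14 members with a ratio of 10 or more and all 13 with a ratio of 5 to 10 were called, with 44 of 50 between 3 and 5 and 95 of 122 between 2 and 3. The 33 members without a call had a median of 57 counts over both GL libraries, against 185.5 in the called members. Their GL libraries were more than 1.5 times apart in 15 of 33, and in 34 of the 166 called. DESeq2 called 2.5% of the loci higher and 172 of the members, and limma-trend on log2(TPM + 1) called 1.86% and 169. Fits without 1 library leave a single library in a genotype, which must be assumed to vary like the other genotype, so their calls are not counted here.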

How the data were processed

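Leaf RNA-seq of GL and OE5 was analysed, 2 libraries each, grouped by sample title. Per the labels and methods, the authors trimmed reads with fastp 0.20.1 and mapped them to Nipponbare (MSU v7.0) with HISAT2 2.1.0. The authors deposited raw counts per locus and TPM values, both from TPMCalculator. Strand and multi-mapped reads are not described. The methods call the 2 libraries of a genotype biological replicates, but how plants were divided between them is not given in the sources used here.

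Members and lists were chosen with earlier results of these data known. Named loci are members in the study's table, the 10 with the largest ratio, the 10 highest in OE5, 2 on either side of the limit, runs of 3, the 5 highest runs of 2, and the 3 with the widest replicate gap per genotype. Outside this rule, loci of the study's list near members are named, with the member beside them. Neighbours of runs, LOC_Os03g15910 and LOC_Os03g15920, and the 2 members lost through the OE5 minimum are named too. Loci were ordered by number. The 112 identifiers without one were not placed.

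Counts were fitted with edgeR 4.0.16 in R 4.3.3 (TMM, robust, TPM sum of 2 in a genotype, Benjamini-Hochberg), and with DESeq2 1.42.0 and limma 3.58.1 (log2(TPM + 1)). The fits were tested on simulated data. Intervals of counts are exact Poisson, 95%.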

Additional observations from a re-analysis of the deposited data

How the results depend on the processing

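The number of loci that met the rule, 199, depended on its limits. It was 608 with a ratio of 1.5, 77 with a ratio of 3, 132 with an OE5 minimum of 5 TPM, 352 without one, and 403 by the ratio of group means. It was within 1.5 times of 199 with TMM or DESeq2 scaling (141 and 143), with GL counts over 10 and with no limit on GL counts (178 and 233). Without 1 library at a time it ran from 323 to 431. The median ratio of 2.62 was 2.384 with TMM scaling, 2.386 with DESeq2 size factors, 3.41 by group means and 2.12 with a pseudocount of 1. Without 1 library it ran from 2.85 to 3.28. The number of members next to another, 29 of 199, was 55 within 10 listed loci. It was 85 of 608 with a ratio of 1.5 and 13 of 77 with a ratio of 3. Without 1 library it ran from 39 of 334 to 61 of 431. These sets differ in size, so the counts alone do not compare. Leaving out the 9 loci of shared length was chosen after seeing the data. The number of members called by edgeR, 166, was 172 with DESeq2 (2.5% of all loci called) and 169 with limma-trend (1.86%), and ran from 92 to 177 without 1 library. With a replicate block it was 168, and the share of all loci called is not given for that fit. The replicate numbers are not said to mark a shared batch. Across 19280 loci, which are not independent, GL-1 minus GL-2 and OE5-1 minus OE5-2 correlated with r = 0.126 (Pearson) and rho = -0.12 (Spearman), and a pairing was not established.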
